A study of Mus musculus with 4 samples.

Results

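The 8 members of this group of genes carry the constant parts of mouse antibodies or join antibody units, and their RNA was followed in single liver nuclei of aged and young mice. They are the heavy chain constant genes Ighm, Ighd and Igha, the light chain constant genes Igkc, Iglc1, Iglc2 and Iglc3, and Jchain. They were taken by symbol, and all 8 were found among the 32285 genes of the count matrices. The mice were C57BL6/J males of wild-type genotype, and 2 libraries came from aged livers (30 months) and 2 libraries from young livers (2 months), all frozen before nuclei were prepared. No group carried a transgene or received an agent, and age is the only difference that the labels give. The labels call the libraries replicates but do not say that each came from its own animal, so a p-value here reflects only how much these libraries vary, and that variation may be technical.

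An antibody is built of heavy and light chains, each with a variable part that binds antigen and a constant part encoded by genes such as these. A resting B cell makes one long heavy chain transcript and splices it to either the Ighm (mu) or the Ighd (delta) constant exons, which give membrane IgM and IgD. A B cell uses either the kappa constant gene Igkc or a lambda constant gene (Iglc1, Iglc2, Iglc3) for its light chain, and most mouse B cells use kappa. When a B cell becomes a plasma cell it secretes antibody in bulk, loses IgD, and turns on Jchain, a small protein that ties IgM and IgA units together. Igha gives the heavy chain of IgA, the antibody of mucosal surfaces and bile.

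The positions below are those of GENCODE vM21 on GRCm38, the assembly that mm10 names. Igkc (ENSMUSG00000076609) lies on chromosome 6, plus strand, from 70726435 to 70726966. The heavy chain genes lie together on the minus strand of chromosome 12, with Ighm (ENSMUSG00000076617) from 113418558 to 113422730, Ighd (ENSMUSG00000104213) from 113406604 to 113416324 and Igha (ENSMUSG00000095079) from 113254830 to 113260236. Jchain (ENSMUSG00000067149) lies on chromosome 5, minus strand, from 88519809 to 88527891. The lambda genes lie on the minus strand of chromosome 16, with Iglc1 (ENSMUSG00000105906) from 19061618 to 19062071, Iglc3 (ENSMUSG00000105547) from 19065230 to 19065681 and Iglc2 (ENSMUSG00000076937) from 19198396 to 19200351.

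The lambda genes are shown by sequence because counts can be split between near-identical copies. The lines give the last 150 coding bases before the stop codon, 5′ to 3′ on the gene's strand, from chr16:19061755-19061904 (Iglc1), chr16:19198539-19198688 (Iglc2) and chr16:19065368-19065517 (Iglc3), GENCODE vM21 on GRCm38. Capitals mark the 4 positions at which Iglc2 and Iglc3 differ.
Iglc1: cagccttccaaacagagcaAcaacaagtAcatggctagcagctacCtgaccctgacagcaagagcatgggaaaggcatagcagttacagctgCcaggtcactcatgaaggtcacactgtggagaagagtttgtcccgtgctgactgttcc
Iglc2: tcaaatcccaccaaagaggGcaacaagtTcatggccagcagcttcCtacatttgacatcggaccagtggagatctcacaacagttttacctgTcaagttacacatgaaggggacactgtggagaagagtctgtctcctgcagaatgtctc
Iglc3: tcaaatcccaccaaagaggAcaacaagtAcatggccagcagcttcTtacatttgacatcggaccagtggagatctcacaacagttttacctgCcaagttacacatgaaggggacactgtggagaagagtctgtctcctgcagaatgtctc
Iglc2 and Iglc3 were identical at 97.3% of these positions, and Iglc1 matched them at 64.0% and 65.3%. Of the 409 words of 50 bases in the Iglc2 transcript, 43 (10.5%) also occurred in that of Iglc3, and none was shared between Iglc1 and either of them. The split of UMIs between Iglc2 and Iglc3 is therefore uncertain, and the sum of all 3 lambda genes is used wherever light chains are compared.

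The deposited matrices held 2666 to 14718 barcodes per library. Filters on mitochondrial UMIs and doublets left 33262 of 43013 barcodes as kept nuclei, with 7216 and 11892 in the aged and 1935 and 12219 in the young libraries. Kept UMIs totalled 23271805 and 42258156 in the aged libraries and 9484108 and 14598992 in the young libraries. Nuclei were clustered without any immunoglobulin gene, so that the members did not choose their own cells, and clusters were named from markers. The B-like class held 215 and 118 aged and 9 and 66 young nuclei. B markers were detected in it, with the summed level of the 12 B markers at 1487 and 1947 CPM in aged and 3588 and 1465 CPM in young B-like nuclei, against 65.3 to 91.7 CPM in hepatocyte-like nuclei. At least 2 of the 12 B markers were held by 183 of 215 and 91 of 118 aged and by 6 of 9 and 27 of 66 young B-like nuclei. By this count the B-like class was least marked in young replicate 2. Part of the class in aged replicate 1 carried other markers: 70 of its 215 B-like nuclei held at least 3 of 12 endothelial markers, whose sum lay at 1959 and 851 CPM in aged and 966 and 539 CPM in young B-like nuclei. At a finer clustering (Leiden resolution 2) 337 of the 408 B-like nuclei stayed B-like and 69 joined macrophage-like clusters, 54 of them from aged replicate 1.

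Over all kept nuclei, Igkc, Ighm and Iglc1 lay higher in both aged than in both young libraries, but none of the members passed the edgeR test across all genes as fitted. Igkc held 453 and 500 UMIs in the aged libraries, which is 19.5 and 11.8 CPM, against 9 and 70 UMIs in the young libraries, which is 0.949 and 4.79 CPM. Both aged libraries stood above both young ones, with means of 15.6 ± 5.40 CPM in aged and 2.87 ± 2.72 CPM in young libraries (SD, n = 2 each). The log2 fold change of Igkc, aged over young, was 2.46 (SE 0.64), and the edgeR adjusted p = 0.189. Ighm held 528 and 341 UMIs (22.7 and 8.07 CPM) in aged and 28 and 88 UMIs (2.95 and 6.03 CPM) in young libraries. Its log2 fold change was 1.78 (SE 0.57, edgeR adjusted p = 0.219). Iglc1 held 42 and 26 UMIs in aged and 1 and 3 UMIs in young libraries (log2 fold change 2.84, SE 0.93, edgeR adjusted p = 0.223). The groups did not overlap for these 3 genes, though the young counts of Iglc1 sit at or under the 3-count floor.

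The other members overlapped between the ages. Jchain lay at 5.37 and 2.56 CPM in aged and 2.74 and 2.60 CPM in young libraries (log2 fold change 0.54, SE 0.57, edgeR adjusted p = 0.665). Ighd lay at 2.84 and 1.02 CPM in aged and 2.11 and 2.40 CPM in young libraries (log2 fold change -0.26, SE 0.65, edgeR adjusted p = 0.87). Iglc2 held 140 and 41 UMIs in aged and 6 and 31 in young libraries, and Iglc3 42 and 13 in aged and 7 and 26 in young libraries. Igha, with 66 and 1 UMIs in aged and 0 and 3 UMIs in young libraries, did not pass the filter on low counts and so has no value in the edgeR fit, and DESeq2 gave it an adjusted p = 0.222. Of the 7 members that edgeR tested it called 0, with 3 at an unadjusted p under 0.05, where 0.0176% of the 17046 genes tested were called higher and 0.00587% lower. DESeq2 tested 8 members and called 2 higher, Igkc (adjusted p = 0.0043) and Ighm (adjusted p = 0.048), where it called 3.31% of 16511 genes higher. Without the filter on low counts, edgeR called Igkc, Ighm, Igha and Iglc1 higher (adjusted p = 9.86e-06, 0.002, 0.0093 and 0.0418), where it called 4.93% of all genes higher. With replicate numbers crossed between the ages as a block, a fit added after seeing the data, edgeR called Igkc alone (adjusted p = 0.0491), where 1.41% of all genes were called higher. Without plasma-like nuclei the log2 fold change of Igkc was 1.70 (SE 0.71, edgeR adjusted p = 0.287). These nuclei are picked by their Igkc and Jchain UMIs and lay in aged libraries alone, so this value depends on the rule. The 3 members above in both aged libraries stand against 24.9% of all genes tested, and 0 members lay below in both against 24.0%. In such sums over a whole library, fewer cells of a type and less RNA per cell cannot be told apart. Leaving out 1 library moved the count of genes called to between 191 and 1954. Igkc passed without aged replicate 2, young replicate 1 or young replicate 2 (edgeR adjusted p = 0.000322, 0.0384 and 1.8e-05) and not without aged replicate 1 (0.105). Ighm passed without aged replicate 2 or young replicate 2 (edgeR adjusted p = 0.0015 and 0.0063) and not without young replicate 1 (0.129). Without aged replicate 1 the log2 fold change of Ighm was 0.87 (edgeR adjusted p = 0.93). Igha passed without aged replicate 2 (edgeR adjusted p = 0.0131). All genes called higher made up 5.15% without aged replicate 2, 1.56% without young replicate 1 and 8.19% without young replicate 2.

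The kinds of nuclei that held the UMIs are given as shares, with no test. For all 8 members together, 43.5% and 13.5% of the UMIs of the aged libraries lay in B-like nuclei that were not plasma-like, against 21.6% and 17.3% in the young libraries. Plasma-like nuclei, kept nuclei with at least 2 Jchain and 2 Igkc UMIs, held 21.5% and 43.2% in the aged libraries and none in the young libraries. The remaining 35.0% and 43.2% in aged and 78.4% and 82.7% in young libraries lay in droplets of other classes. Of the Ighd UMIs, 49 of 66 and 27 of 43 lay in B-like nuclei in aged libraries, against 4 of 20 and 13 of 35 in young libraries. Of the Jchain UMIs, 70.4% and 25.9% lay in plasma-like nuclei in the aged libraries, and all of them lay outside B-like and plasma-like nuclei in the young libraries.

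**Figure D1:**
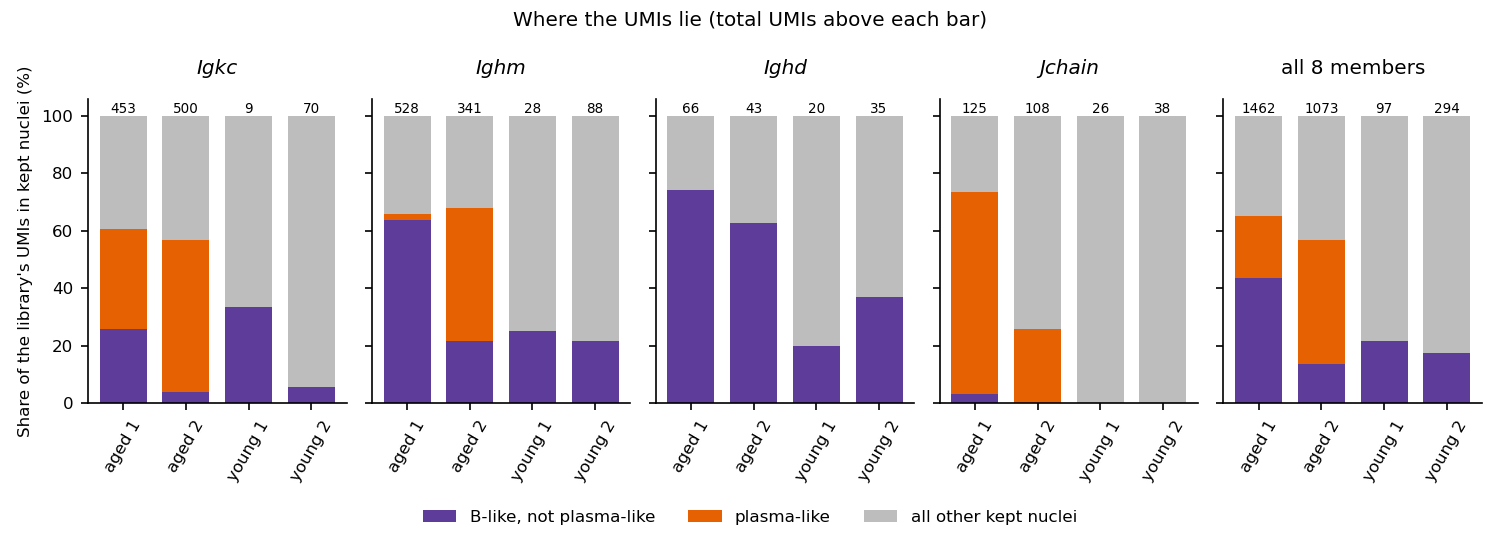
Share of each library's UMIs (percent, vertical axis) in B-like nuclei that are not plasma-like, in plasma-like nuclei and in all other kept nuclei, for 4 members and for all 8, by library, with the UMI total above each bar. Other nuclei hold 78.4% and 82.7% of all member UMIs in the young libraries, against 35.0% and 43.2% in the aged libraries.

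B-like nuclei were 2.98% and 0.992% of kept nuclei in the aged libraries and 0.465% and 0.540% in the young libraries (1.99% ± 1.41 in aged and 0.503% ± 0.053 in young, SD, n = 2 each). The exact two-sided permutation test gave p = 0.333, the smallest that 2 libraries against 2 allow. Counted instead as nuclei with UMIs of at least 2 B markers, the shares overlapped, at 4.88% and 2.01% in aged and 3.67% and 0.868% in young libraries (exact permutation p = 0.667). This count took 71 nuclei of young replicate 1, where the clusters gave 9. Ralgps2, a marker in it, was seen in 13.3% and 24.3% of aged and 26.6% and 7.03% of young hepatocyte-like nuclei. The count can therefore take in hepatocyte-like nuclei, and how many was not tested.

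Within B-like nuclei, Ighd and Iglc3 were lower in both aged than in both young libraries, and Igkc, Ighm, Iglc1 and Iglc2 overlapped. Ighd, the delta constant gene, lay at 46.4 and 86.0 CPM in aged B-like nuclei (49 and 27 UMIs), against 276 and 152 CPM in young B-like nuclei (4 and 13 UMIs). The 2 groups did not overlap, but the young values rest on 17 UMIs. Its log2 fold change was -1.38 (SE 0.59, edgeR adjusted p = 0.49). Iglc3 lay at 25.6 and 28.7 CPM in aged B-like nuclei (27 and 9 UMIs), against 207 and 105 CPM in young B-like nuclei (3 and 9 UMIs), with a log2 fold change of -2.09 (SE 0.52, edgeR adjusted p = 0.315). With nuclei chosen by at least 2 B markers, the log2 fold changes were -0.31 for Ighd (SE 0.60, edgeR adjusted p = 0.854) and -0.57 for Iglc3 (SE 0.80, edgeR adjusted p = 0.788), and at Leiden resolution 2 they were -0.75 and -1.50. Iglc2, the near-identical copy of Iglc3, lay at 72.0 and 41.4 CPM in aged and 207 and 58.6 CPM in young B-like nuclei. Its log2 fold change of -0.38 (SE 0.71, edgeR adjusted p = 0.901) turned to 0.51 at Leiden resolution 2 and to 1.55 with nuclei chosen by at least 2 B markers.

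Igkc in B-like nuclei spread widely, with 111 and 905 CPM in aged and 207 and 46.9 CPM in young libraries. The high value of aged replicate 2 came from 4 plasma-like nuclei inside the B-like clusters, and without them that library lay at 65.7 CPM. The log2 fold change of Igkc was 2.76 with them (SE 1.16, edgeR adjusted p = 0.482) and 0.41 without them (SE 0.76, edgeR adjusted p = 0.892). The rule picks these nuclei by their Igkc and Jchain UMIs and found them in aged libraries alone. Leaving them out therefore lowers Igkc in the aged group by the rule itself. Without the filter on low counts Igkc was called in B-like nuclei (edgeR adjusted p = 0.0345), where 0.119% of all genes were called higher. Ighm lay at 319 and 739 CPM in aged and 483 and 223 CPM in young B-like nuclei, and without the plasma-like nuclei aged replicate 2 lay at 243 CPM. Its log2 fold change was 0.97 with them and 0.13 without them (edgeR adjusted p = 0.611 and 0.966). At Leiden resolution 2, with plasma-like nuclei included, Ighm lay higher in both aged than in both young libraries. The means there were 774 ± 6.14 CPM in aged and 346 ± 182 CPM in young B-like nuclei (SD, n = 2 each). The B-like class of aged replicate 1 held 1055226 UMIs at the main clustering and 305675 UMIs at resolution 2. At the main clustering Iglc1 held 26 and 16 UMIs in aged and 1 and 1 in young B-like nuclei. Jchain, which marks antibody-secreting cells, had 4 and 28 UMIs in aged and 0 and 0 in young B-like nuclei, and all 28 of aged replicate 2 lay in the plasma-like nuclei. Igha had no UMI in B-like nuclei of any library. In B-like nuclei edgeR called 0 of 6 members tested (3 at an unadjusted p under 0.05) and DESeq2 called 0 of 7 (2 at an unadjusted p under 0.05). Among all 4720 genes tested there, 0% were called in either direction. Of the 6 members tested, 2 had both aged libraries below both young, against 22.6% of all genes tested, and 0 had them above, against 20.2%. Jchain, which did not enter that fit, had UMIs in both aged libraries and 0 in both young ones. The young B-like classes held only 14491 and 85313 UMIs in all, too few for 0 counts to show a lower level. Young replicate 1 gave only 9 nuclei and 14491 UMIs to this class, which limits its values to steps of one UMI.

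**Figure D2:**
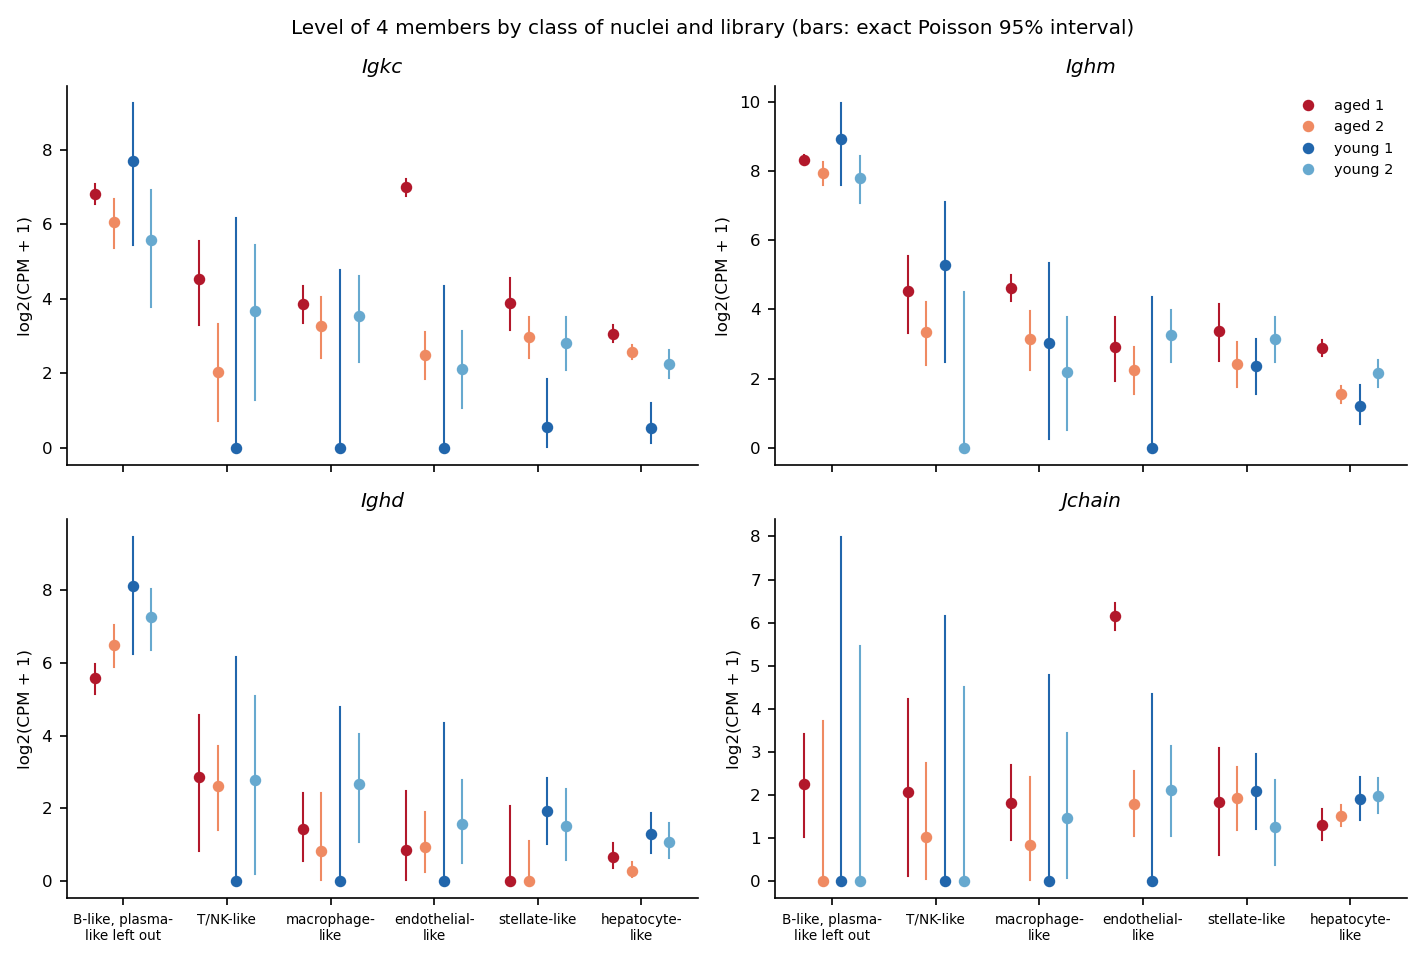
Level of Igkc, Ighm, Ighd and Jchain as log2(CPM + 1) (vertical axes) in 6 classes of nuclei (B-like without plasma-like ones), with aged libraries left of young ones and exact Poisson 95% intervals, which cover counting error only. Among these classes Igkc, Ighm and Ighd are highest in B-like nuclei in each library, apart from Igkc in aged replicate 1, whose endothelial-like nuclei include 1 plasma-like nucleus with 147 Igkc and 84 Jchain UMIs.

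In B-like nuclei the share of Ighd beside Ighm was lower in both aged than in both young libraries. Ighd made up 12.7% (49 of 386) and 10.4% (27 of 259) of the Ighm and Ighd UMIs in the aged libraries, against 36.4% (4 of 11) and 40.6% (13 of 32) in the young libraries. The mean was 11.6% ± 1.61 in aged and 38.5% ± 3.01 in young libraries (SD, n = 2 each), a difference of -26.9 percentage points at an exact two-sided permutation p = 0.333, the smallest that this test can give here. The exact binomial intervals at 95% were 9.54% to 16.4% and 6.98% to 14.8% in aged libraries and 10.9% to 69.2% and 23.7% to 59.4% in young libraries, so that of young replicate 1 reached into the aged range. Leaving out the plasma-like nuclei, which held 158 Ighm and 0 Ighd UMIs in aged replicate 2, brought that library to 26.7% and the difference to -18.8 points. With at most 1% mitochondrial UMIs the difference turned to 4.82 points, at 14.6% and 28.4% in aged and 0% and 33.3% in young libraries, where young replicate 1 had 1 B-like nucleus.

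Outside B nuclei Ighd was lower in both aged libraries in hepatocyte-like and stellate-like nuclei, and classes with few UMIs overlapped. In hepatocyte-like nuclei without the plasma-like one, Ighd made up 9.26% (10 of 108) and 10.0% (7 of 70) of these UMIs in aged libraries, against 52.6% (10 of 19) and 24.4% (11 of 45) in young libraries. In stellate-like nuclei the mean level of Ighd was 0 CPM in aged and 2.33 CPM in young libraries, beside 6.91 and 6.06 CPM of Ighm. The groups overlapped, on few UMIs, in T/NK-like nuclei (2 of 9 and 5 of 14 in aged, 0 of 2 and 1 of 1 in young) and in macrophage-like nuclei (4 of 60 and 1 of 11 in aged, 0 of 1 and 3 of 5 in young). In endothelial-like nuclei 1 of 9 and 3 of 15 in aged stood beside 3 of 16 in young replicate 2, while young replicate 1 had no such UMI and so no share. The B-like nuclei and these droplets come from the same suspensions, so they are not independent of each other. Per nucleus, 123 and 40 aged B-like nuclei held Ighm without Ighd, 17 and 15 held Ighd without Ighm and 26 and 7 held both. In young B-like nuclei these counts were 4 and 11, 2 and 8, and 1 and 3.

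Lambda UMIs were 52.4% (129 of 246) and 11.8% (38 of 322) of all light chain UMIs in aged B-like nuclei, against 70.0% (7 of 10) and 78.9% (15 of 19) in young B-like nuclei. The means were 32.1% ± 28.7 in aged and 74.5% ± 6.33 in young libraries (SD, n = 2 each), a difference of -42.4 percentage points at an exact two-sided permutation p = 0.333. Without plasma-like nuclei, aged replicate 2 stood at 54.5% (24 of 44), next to the 52.4% of aged replicate 1, and the difference was -21.0 points. The rule picks these nuclei by their Igkc UMIs, so this shift depends on the rule and is given as a description only. Without these nuclei the exact binomial intervals ran from 46.0% to 58.8% and from 38.8% to 69.6% in aged libraries. In young libraries they ran from 34.8% to 93.3% and from 54.4% to 93.9%, and the intervals of the ages overlapped. UMIs of different genes are not scaled by length, so this share compares libraries and is no census of kappa and lambda cells. Most B-like nuclei gave too few UMIs for a light chain call: 103 of 215 and 79 of 118 aged and 4 of 9 and 49 of 66 young ones held no light chain UMI at all. Lambda UMIs without Igkc were seen in 54 and 19 aged and 2 and 14 young nuclei, Igkc without lambda in 28 and 13 aged and 1 and 3 young nuclei, and both in 30 and 7 aged and 2 and 0 young nuclei.

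**Figure D3:**
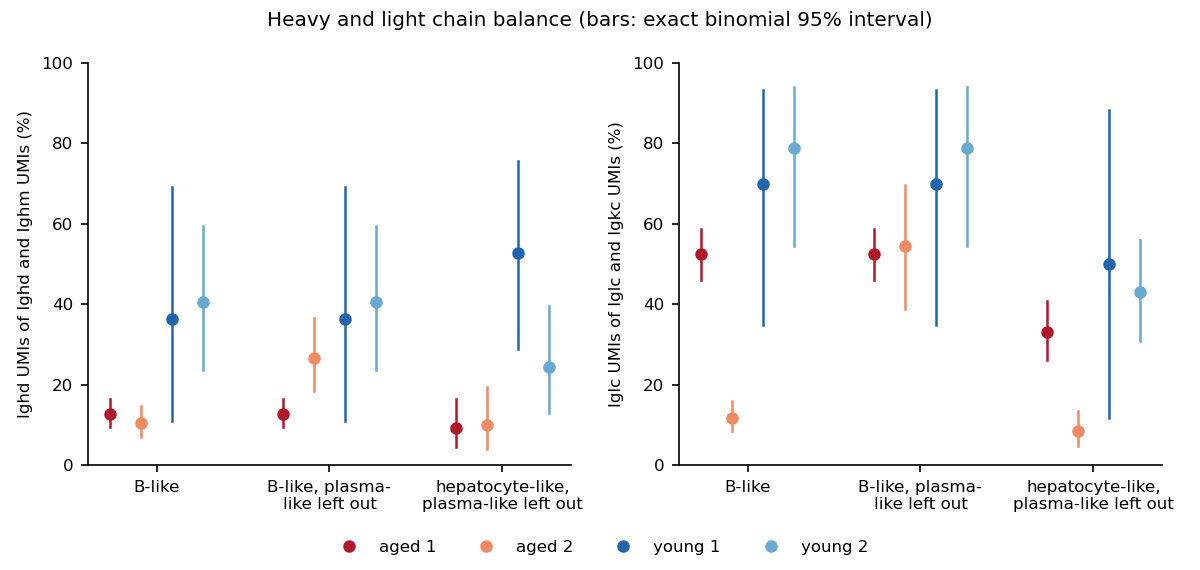
Share of Ighd among Ighd and Ighm UMIs (left, percent) and of the 3 lambda genes among all light chain UMIs (right, percent) in B-like nuclei, with and without plasma-like nuclei, and in hepatocyte-like nuclei, with exact binomial 95% intervals. Both aged libraries lie below both young libraries in every group of points, and removing 4 plasma-like nuclei changes the lambda share of aged replicate 2, which is 54.5% without them and 11.8% with them. The rule picks these nuclei by their Igkc and Jchain UMIs, so that change depends on the rule.

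Plasma-like nuclei were found in the aged libraries alone, with 2 of 7216 and 4 of 11892 kept nuclei (0.0277% and 0.0336%). Of the young libraries, 0 of 1935 and 0 of 12219 nuclei met the rule, which allows shares of up to 0.155% and 0.0246% by the floor of 3 counts, and 0.19% and 0.0302% by the exact binomial interval at 95%. The difference of 0.0307 percentage points had an exact two-sided permutation p = 0.333. Both limits of young replicate 1 lie above both aged shares, and the binomial limit of young replicate 2 lies above the share of aged replicate 1. That aged share lies under the floor of 3 counts in its own library (0.0416%). The rule counts UMIs, and the median per kept nucleus was 1875 and 2272 UMIs in aged and 3177 and 920 UMIs in young libraries. How far depth sets this difference was not tested. At 1 or more UMIs of each gene 8 and 8 aged and 0 and 0 young nuclei qualified, and at 5 or more 1 and 3 aged and 0 and 0 young nuclei. The levels of Igkc and Jchain in these nuclei follow from the rule and are given as a description only.

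They fell into different isotypes. In aged replicate 1, nucleus 1 held 147 Igkc, 84 Jchain and 58 Igha UMIs and no Ighm UMI, so a single nucleus held 58 of the 66 Igha UMIs of its library. It lay in an endothelial-like cluster with 17147 UMIs and 10 of the 12 endothelial markers, and it held only 1 UMI of Mzb1 and 2 of Xbp1 among 13 plasma cell markers. Nucleus 3 of that library, in a hepatocyte-like cluster, held 10 Igkc, 11 Ighm and 4 Jchain UMIs among 5177. Both nuclei held UMIs of all 12 hepatocyte markers (299 and 115 UMIs), and the part of RNA from other cells in their counts was not tested.

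The 4 nuclei of aged replicate 2 lay in B-like clusters, and all of them held Ighm and none held Ighd or Igha. Nucleus 1 held 131 Igkc, 70 Ighm and 11 Jchain UMIs, and the members made up 24.5% of its 871 UMIs. Nucleus 2 held 117 Igkc, 74 Ighm and 7 Jchain UMIs, or 20.6% of 959 UMIs. These 2 small nuclei each showed 4 plasma cell markers with 1 UMI apiece, among them Mzb1, a chaperone of antibody assembly, and Prdm1, the regulator of plasma cell fate, in nucleus 1 and Xbp1, a driver of secretory expansion, in nucleus 2. Nucleus 3 held 12 Igkc, 13 Ighm and 7 Jchain UMIs with 5 UMIs of Irf4, a transcription factor needed for plasma cells. Nucleus 4 held 4 Igkc, 1 Ighm, 3 Jchain and 6 Iglc1 UMIs together with 6 of the 12 B markers. Variable gene segments were caught in few UMIs, such as Igkv10-96 with 2 UMIs and Ighv1-82 with 1 UMI in nucleus 1 of aged replicate 2 and Igkv10-94 with 1 UMI in nucleus 1 of aged replicate 1.

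**Figure D4:**
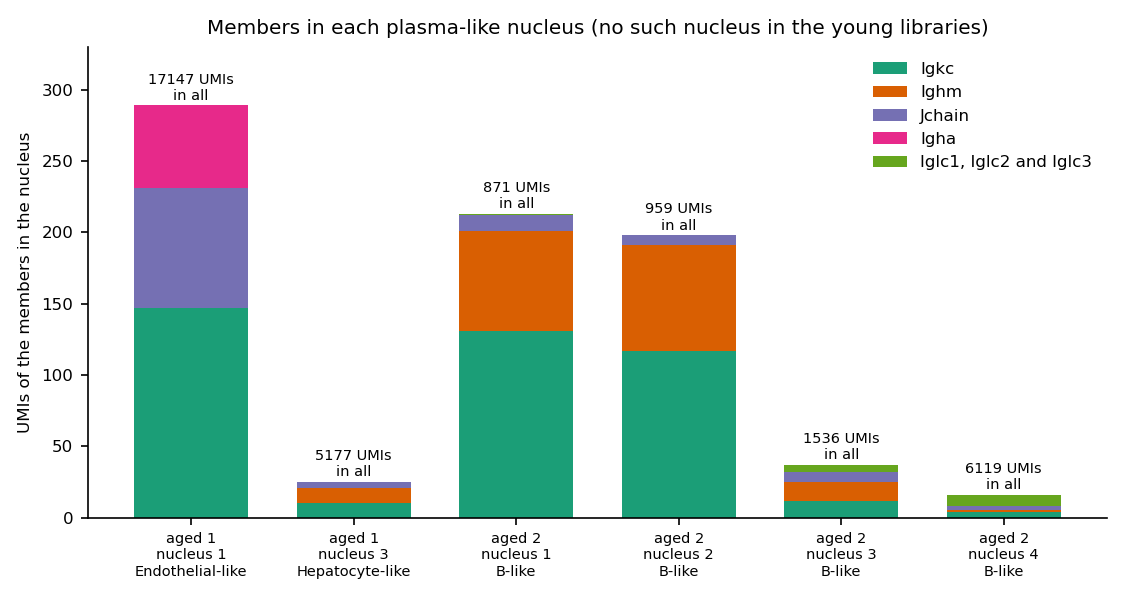
UMIs of the members (vertical axis) in each of the 6 plasma-like nuclei, stacked by gene, with the nucleus's total UMIs above the bar and its library and cluster class below. Nucleus 1 of aged replicate 1 is the one with Igha (58 UMIs) and has no Ighm, and the 4 nuclei of aged replicate 2 all hold Ighm.

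The genes that stood out most in the summed plasma-like nuclei over the other B-like nuclei, by ratio of CPM among genes other than immunoglobulin genes with at least 10 UMIs there and a UMI in both aged libraries, were Txndc5, a disulfide isomerase of the endoplasmic reticulum, at 346 CPM in plasma-like and 61.7 CPM in B-like nuclei (5.61-fold, 11 UMIs), Clu at 755 and 147 CPM (5.15-fold) and Rpl23 at 314 and 74.7 CPM (4.21-fold). The next were Atp6v1h, Pcdh11x, Rap1a, Airn, Fndc3a, Met and Rhot1, at 3.89-fold to 2.71-fold. With 6 nuclei these values carry no test, and 17147 of the UMIs came from 1 nucleus, which held UMIs of all 12 hepatocyte markers. Clu, Atp6v1h and Pcdh11x were each seen in 2 nuclei only. Pcdh11x and Airn were also among the leading genes of hepatocyte-like clusters. How far RNA of other cells sets these ratios was not tested.

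Outside B-like and plasma-like nuclei the members were found at low levels in nearly every class. Hepatocytes make no antibody, so the share of hepatocyte-like nuclei with a UMI gives the background for the shares in B-like nuclei. After plasma-like nuclei were left out, an Igkc UMI was seen in 27.0% and 14.0% of aged and 33.3% and 4.55% of young B-like nuclei, and in 1.92% and 1.84% of aged and 0.146% and 0.420% of young hepatocyte-like nuclei. An Ighm UMI was seen in 69.3% and 37.7% of aged and 55.6% and 21.2% of young B-like nuclei, and in 1.45% and 0.677% of aged and 0.655% and 0.386% of young hepatocyte-like nuclei. Median depth was 1375 and 991.5 UMIs in aged and 910 and 1048.5 UMIs in young B-like nuclei, and 2118 and 2988.5 UMIs in aged and 3597 and 924 UMIs in young hepatocyte-like nuclei. For both genes every library's share was higher in B-like nuclei although most of these were shallower. A Jchain UMI was seen in 3 of 215 B-like nuclei of aged replicate 1 and in none of the other libraries, and in 0.381% and 0.714% of aged and 1.38% and 0.329% of young hepatocyte-like nuclei. The rule for plasma-like nuclei removes those with at least 2 Jchain and at least 2 Igkc UMIs, and the young B-like nuclei number 9 and 66. These counts therefore do not place the Jchain share of B-like nuclei against that of hepatocyte-like nuclei.

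Among the other classes, Igkc lay at 22.1 and 3.08 CPM in aged and 0 and 11.8 CPM in young T/NK-like nuclei, at 13.5 and 8.63 CPM in aged and 0 and 10.7 CPM in young macrophage-like nuclei, and at 13.8 and 6.82 CPM in aged and 0.464 and 6.07 CPM in young stellate-like nuclei. In endothelial-like nuclei it lay at 126 and 4.64 CPM in aged and 0 and 3.31 CPM in young libraries, the first value resting on the plasma-like nucleus with 147 of 156 UMIs. Cholangiocyte-like nuclei held no Igkc UMI in any library, and the high levels of mesothelial-like nuclei (0 and 10.5 CPM in aged, 47.7 and 36.3 CPM in young libraries) rest on at most 3 UMIs. The order of T/NK-like, macrophage-like and stellate-like nuclei changed from library to library, so these neighbours do not differ beyond their spread. Macrophage-like nuclei of aged replicate 1 held 56 Ighm UMIs (23.7 CPM), against 10, 1 and 2 UMIs in aged replicate 2 and young replicates 1 and 2, and 54 B-like nuclei of aged replicate 1 moved to macrophage-like clusters at the finer clustering.

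In hepatocyte-like nuclei Igkc was higher in CPM, and Ighd and Jchain lower, in both aged than in both young libraries, and none passed the test. Igkc held 125 and 163 UMIs (7.33 and 4.96 CPM) in aged and 3 and 37 UMIs (0.438 and 3.75 CPM) in young hepatocyte-like nuclei, with a log2 fold change of 1.61 (SE 0.79, edgeR adjusted p = 0.323). Thinned to 500 UMIs per nucleus, the share with an Igkc UMI was 0.538% and 0.376% in aged and 0.0255% and 0.178% in young libraries (0.457% ± 0.115 in aged and 0.102% ± 0.108 in young, SD, n = 2 each, exact permutation p = 0.333). Unthinned it was 1.94% and 1.84% in aged and 0.146% and 0.420% in young libraries. Ighd held 10 and 7 UMIs (0.586 and 0.213 CPM) in aged and 10 and 11 UMIs (1.46 and 1.12 CPM) in young hepatocyte-like nuclei (log2 fold change -1.71, SE 0.80, edgeR adjusted p = 0.305). Ighm overlapped, at 6.39 and 1.92 CPM in aged and 1.31 and 3.45 CPM in young libraries, as did Iglc2. In these nuclei edgeR called 0 of 5 members tested, with 0 at an unadjusted p under 0.05, and DESeq2 called 0 of 8, with 1 at an unadjusted p under 0.05. All genes tested there gave 0.0392% called higher and 0.00654% lower, with 23.8% above in both aged libraries (1 of 5 members) and 26.5% below in both (2 of 5 members). Igkc passed without young replicate 2 (edgeR adjusted p = 0.0114, log2 fold change 3.72), the library that held 37 of the 40 young UMIs, where 6.48% of all genes were called higher.

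**Figure D5:**
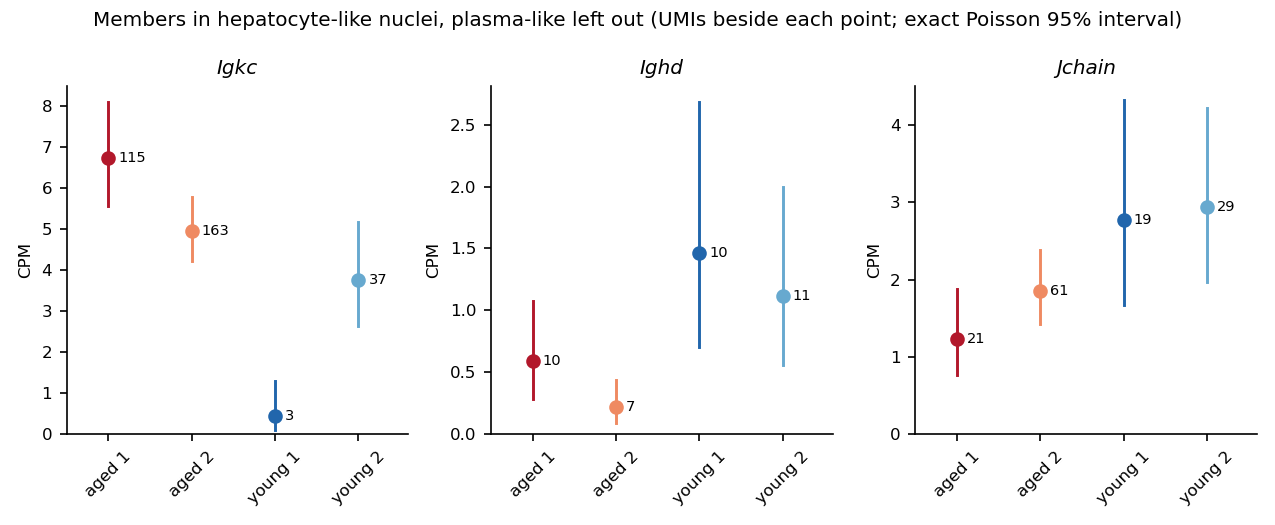
CPM of Igkc, Ighd and Jchain (vertical axes from 0) in hepatocyte-like nuclei without the plasma-like one, by library, with UMIs beside each point and exact Poisson 95% intervals. Igkc reaches 6.75 and 4.96 CPM in aged and 0.438 and 3.75 CPM in young libraries, while Jchain lies at 1.23 and 1.86 CPM in aged and 2.77 and 2.94 CPM in young libraries.

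By CPM, Jchain, which joins antibody units, lay lower in both aged than in both young libraries in hepatocyte-like nuclei. It held 25 and 61 UMIs (1.47 and 1.86 CPM) in aged and 19 and 29 UMIs (2.77 and 2.94 CPM) in young hepatocyte-like nuclei (log2 fold change -0.74, SE 0.56, edgeR adjusted p = 0.517). In young replicate 1, 19 Jchain UMIs stood beside 3 Igkc UMIs in hepatocyte-like nuclei, while its B-like nuclei held 0 Jchain and 3 Igkc UMIs. After thinning to 500 UMIs the share of hepatocyte-like nuclei with a Jchain UMI was 0.0819% and 0.12% in aged and 0.106% and 0.159% in young libraries. At this equal depth the groups overlapped. With the plasma-like nuclei left out, at most 2 Jchain UMIs lay in any hepatocyte-like nucleus, so this signal was spread over many droplets.

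The UMIs of the members did not stand in one ratio across classes. There were 0.347 and 0.270 Igkc UMIs per Ighm UMI in aged and 0.429 and 0.211 in young B-like nuclei without plasma-like ones. In hepatocyte-like nuclei the ratio was 1.17 and 2.59 in aged and 0.333 and 1.09 in young libraries, and in the plasma-like nuclei of the aged libraries it was 14.3 and 1.67. The ratio of Jchain to Igkc was 0.0342 and 0 in aged and 0 and 0 in young B-like nuclei, and 0.183 and 0.374 in aged and 6.33 and 0.784 in young hepatocyte-like nuclei. Over all nuclei other than B-like and plasma-like ones, Igkc lay at 8.07 and 5.15 CPM in aged and 0.634 and 4.55 CPM in young libraries (log2 fold change 1.39, SE 0.75, edgeR adjusted p = 0.385). Ighd lay at 0.766 and 0.381 CPM in aged and 1.69 and 1.52 CPM in young libraries (log2 fold change -1.52, SE 0.65, edgeR adjusted p = 0.295), and Jchain at 1.49 and 1.91 CPM in aged and 2.75 and 2.62 CPM in young libraries (log2 fold change -0.67, SE 0.52, edgeR adjusted p = 0.545). The plasma-like rule, which uses Jchain and Igkc, took nuclei out of the aged libraries alone. In aged replicate 1 the plasma-like nuclei held 88 Jchain UMIs, and 33 were left in the nuclei compared here. The order of Jchain and the log2 fold change of Igkc between the ages in this set therefore depend on the rule. Here edgeR called 0 of 6 members tested (0 at an unadjusted p under 0.05) and DESeq2 called 0 of 8 (1 at an unadjusted p under 0.05), while edgeR called 0% of all genes higher and 0.0059% lower. Of the 6 members tested, 1 lay above in both aged libraries and 2 below, where 24.4% and 24.5% of all genes did so. Iglc1, which did not enter this fit, also lay above in both, on 16 and 10 UMIs in aged and 0 and 2 UMIs in young libraries.

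The genes whose levels ran most like a member were sought over 28 sums of a class in a library, among 12828 genes, by Pearson r of log2(CPM + 1). These points share libraries and differ in depth, so r is a description. Among the genes most like Ighm were Chst3 (r = 0.889), Clec2g (0.871), Pax5 (0.866), the master regulator of B cell identity, and Cacna1e (0.861). Igkc was most like Dmtf1 (r = 0.797), Slc38a1, Spdya, Man1a and Napsa (0.777 to 0.732), and among those most like Jchain were Platr29 (r = 0.783), Chrm1, Chml and Cntn2 (0.749 to 0.724). Among the members themselves Ighd ran with Iglc3 (r = 0.891) and Ighm with Iglc1 (r = 0.849), and Igkc with Ighm at 0.531.

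Other genes of the antibody pathway were followed as lists. Of 24 genes of the B cell receptor complex and its signalling, all 24 were tested over all kept nuclei and 0 passed, with 20 above 0 and a median log2 fold change of 0.49, beside -0.0039 over all genes. Among those with the smallest p were Cr2, a complement receptor (29.6 and 8.54 CPM in aged, 1.27 and 3.01 CPM in young libraries), Blnk, an adaptor of the receptor, and Blk, a B cell kinase (13.0 and 2.13 CPM in aged, 0.527 and 1.44 CPM in young libraries; log2 fold change 2.91, SE 0.93, edgeR adjusted p = 0.219). In B-like nuclei 18 of them were tested and 0 passed, with 7 above and 11 below 0 and a median of -0.18, beside 0.094 over all genes. There Cd79b, a signalling chain of the receptor, lay at 72.0 and 57.3 CPM in aged and 207 and 129 CPM in young nuclei (edgeR adjusted p = 0.584).

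Of 23 genes of plasma cell differentiation and secretion 20 were tested over all kept nuclei and 0 passed, with a median log2 fold change of -0.017. Creld2, an endoplasmic reticulum stress gene that hepatocytes express as well, lay at 3.31 and 7.31 CPM in aged and 11.8 and 32.5 CPM in young libraries (log2 fold change -2.02, SE 0.54, edgeR adjusted p = 0.19). Fkbp11, Edem1 and Hsp90b1, further genes of protein folding, had the next smallest p, and both aged libraries lay below both young ones for each of them. Of the 20 genes tested 6 lay so, near the 24.0% of all genes tested. In 2 of the 20 both aged libraries lay above, against 24.9% of all genes. The 12 genes of germinal centres and class switching gave 9 tested and 0 passed, with a median of 0.028, and the 14 age-associated and B-1 B cell genes 13 tested and 0 passed, with a median of 0.60. Among these Cd5, a B-1 and T cell marker, lay at 1.03 and 0.97 CPM in aged and 0.316 and 0.274 CPM in young libraries. All 15 follicular and marginal zone B cell genes were tested and 0 passed (median 0.32). Cxcr5, the chemokine receptor that guides B cells to follicles, came nearest, at 29.3 and 29.9 CPM in aged and 4.96 and 6.10 CPM in young libraries (log2 fold change 2.41, SE 0.31, edgeR adjusted p = 0.11), and it was as high in hepatocyte-like nuclei, at 28.3 and 31.0 CPM in aged and 4.67 and 5.68 CPM in young libraries (edgeR adjusted p = 0.078). Cr2 behaved likewise, with 28.6 and 7.70 CPM in aged and 1.02 and 3.04 CPM in young hepatocyte-like nuclei. How far these hepatocyte-like nuclei set the values of both lists over all kept nuclei was not tested.

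Of 13 antibody receptors and transporters 11 were tested over all kept nuclei and 0 passed (median log2 fold change -0.43). Pigr, which carries IgA and IgM with their J chain across epithelium, lay at 388 and 251 CPM in aged and 89.5 and 213 CPM in young libraries (log2 fold change 1.11, SE 0.44, edgeR adjusted p = 0.269). Fcgrt, the receptor that spares IgG from breakdown, lay at 24.0 and 27.7 CPM in aged and 39.3 and 64.6 CPM in young libraries (log2 fold change -0.999, SE 0.30, edgeR adjusted p = 0.208), and Asgr1, a hepatocyte lectin, at 86.6 and 82.1 CPM in aged and 116 and 204 CPM in young libraries (edgeR adjusted p = 0.238). None of the 5 other heavy chain constant genes in the files reached the level needed for the test.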

How the data were processed

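Single-nucleus RNA was measured in 4 libraries with the 3' v2 droplet kit, per the labels. The authors deposited UMI counts per gene and barcode, not normalized, and the submitters' processing notes name Cell Ranger 7.1.0 and the mm10 build. Which annotation release was used, and whether intronic reads were counted, is not given in the sources used here. Every deposited barcode held at least 500 UMIs.

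Kept nuclei had at least 500 UMIs, 300 genes and at most 5% mitochondrial UMIs. Scrublet (scanpy 1.11.5) marked 0 barcodes with its automatic threshold, so the highest scores were removed at 0.8% per 1000 barcodes (3927). The 393 immunoglobulin genes were left out before clustering (2000 variable genes, 30 components, 20 neighbours, Leiden in igraph 0.11.9, resolution 1, no integration). A cluster was named from at least 3 markers with a mean log2 ratio over 1. Hepatocyte-like clusters were those with no other class and at least 3 hepatocyte markers among their 200 most abundant genes, a rule set after seeing the data. Libraries shared 27 to 135 barcodes with the others.

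CPM are counts per 1000000 UMIs of the same nuclei. Counts summed per library were tested with edgeR 4.0.16 (R 4.3.3; filterByExpr, TMM, quasi-likelihood F test, Benjamini-Hochberg over all genes tested, threshold 0.05), with DESeq2 1.42.0 as an alternative. The B-like fit was made where each library held at least 5 nuclei. Shares were compared by exact two-sided permutation tests. Binomial (Clopper-Pearson) and Poisson intervals are exact at 95%, and they and the floor of 3 counts cover counting error only. The thinned share is the exact expectation at 500 UMIs. The main edgeR fit of each set of nuclei was tested on data simulated at a fixed dispersion, and the alternative fits were not so tested. Libraries of a group were no copies of one another (chi-square per degree of freedom 127 between aged and 74.7 between young libraries). The members, lists and tests were chosen with earlier results of these data known. All 8 members are named, and of each list up to 4 genes with the smallest p; a few genes that these rules name are not reported here. The plasma-like rule uses Jchain and Igkc themselves.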

Additional observations from a re-analysis of the deposited data

Results flagged for a closer look

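Jchain lay higher in aged libraries in B-like nuclei and lower in hepatocyte-like nuclei. In B-like nuclei each aged library stood higher than each young one, with 4 and 28 UMIs in aged and 0 and 0 UMIs in young nuclei, a difference of mean level of 46.5 CPM. Both aged libraries lay below both young ones in hepatocyte-like nuclei, a difference of mean level of -1.20 CPM. The difference between the classes was not tested. All 28 UMIs of aged replicate 2 lay in 4 plasma-like nuclei, and the young B-like class held 9 and 66 nuclei.

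Ighg3, an IgG heavy chain gene that is not among the members, had 12 and 3 UMIs in aged and 0 and 0 UMIs in young kept nuclei. With counts this low it was not tested.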

How the results depend on the processing

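Over all kept nuclei 4 genes were called by edgeR. The count was 1713 without the filter on low counts, 836 by DESeq2, 1 without doublet removal, 1 with at most 1% mitochondrial UMIs and 191 to 1954 when a library was left out. In B-like nuclei 0 genes were called, against 22 without the filter, 3 with nuclei chosen by at least 2 B markers, 0 by DESeq2 and 0 to 13 when a library was left out. Fits of B-like nuclei with at least 1000 UMIs or at most 1% mitochondrial UMIs were not run, since young replicate 1 then held under 5 nuclei. In hepatocyte-like nuclei 7 genes were called, against 1486 without the filter, 825 by DESeq2, 4 with at least 1000 UMIs, 2 with at most 1% mitochondrial UMIs and 215 to 1334 when a library was left out. In nuclei other than B-like and plasma-like ones 1 gene was called, against 6 with RLE size factors, 1666 without the filter, 826 by DESeq2, 6 without doublet removal, 5 with at least 1000 UMIs and 190 to 1263 when a library was left out. The cause of these changes was not tested.

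Libraries of the same number did not deviate together (correlation -0.276 over all kept nuclei), so the replicate block is an alternative only. It called 42 genes over all kept nuclei, 0 in B-like, 54 in hepatocyte-like and 9 in the other nuclei. The crossed replicate block, added after seeing the data, called 314, 43, 12 and 47 genes in the same order.

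Among shares, the Ighd difference turned to 4.82 points with at most 1% mitochondrial UMIs. Among log2 fold changes, Jchain over all kept nuclei was -0.64 without plasma-like nuclei, an alternative added after seeing the data. Those nuclei are picked by their Jchain and Igkc UMIs, so this value depends on the rule. Iglc2 in B-like nuclei was 1.55 by the marker count and 0.51 at resolution 2. When a library was left out, signs turned for these: over all kept nuclei Jchain ran from -0.0783 to 0.99, Ighd from -1.15 to 0.33, Iglc3 from -1.996 to 0.53 and Iglc2 from -0.48 to 2.25. In B-like nuclei Iglc1 ran from -0.22 to 1.69 and Iglc2 from -1.07 to 0.15, and in hepatocyte-like nuclei Ighm ran from -0.25 to 1.58 and Iglc2 from -1.47 to 3.01. In the other nuclei Ighm ran from -0.39 to 1.26 and Iglc2 from -0.62 to 2.29. Of 303 alternatives for single members, 274 kept direction and side of the threshold, 14 passed it where the value reported did not, and 15 reversed. The young B-like values rest on 9 and 66 nuclei.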

Other observations

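Barcodes over the mitochondrial limit, which entered only the alternative with all deposited barcodes, held 272 and 24 member UMIs in 3424 and 843 aged barcodes and 21 and 14 member UMIs in 689 and 868 young barcodes. Ighm reached 8.54 and 1.02 CPM there in aged and 4.37 and 5.36 CPM in young libraries, and the groups overlapped. Among the other heavy chain constant genes in kept nuclei, Ighg2b had 1 and 3 UMIs in aged and 0 and 1 in young libraries, Ighg2c 1 and 5 in aged and 0 and 0 in young libraries, and Ighe 0 in all of them.

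Lambda UMIs without Igkc were seen in more B-like nuclei than Igkc without lambda, with 73 against 40 aged and 16 against 4 young nuclei once plasma-like nuclei were left out. In hepatocyte-like nuclei the order of the summed libraries was the other way at both ages, with 62 nuclei holding lambda alone and 253 holding Igkc alone in the aged libraries and 28 and 37 in the young libraries, though young replicate 1 had 2 with lambda alone and 1 with Igkc alone. The cause was not tested.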
